A study of Oryctolagus cuniculus with 39 samples.

Results

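Whole interscapular brown fat of the rabbit at 3 weeks of age was compared with that at day 1 after birth, the first interval in which this depot was sampled. The comparison used 6 of the 39 samples of the series, 3 libraries at each age, and the 12066 of 20183 genes in the table of whole tissue that reached an FPKM (fragments per kilobase of transcript, scaled to the mapped fragments of each library) of 1 or more in at least 3 of the 6 libraries. All samples came from New Zealand White rabbits, and the groups differed in age alone as far as the labels say. The series also sampled the whole tissue (total iBAT) at 6 and 12 weeks, and the stromal vascular fraction (SVF), the non-adipocyte cells of the tissue, at the same ages. The SVF of a second depot, the subscapular (sBAT), was sampled at these ages too. Whether each library came from a separate animal, and whether animals were pooled, is not given in the sources used here. The SEs and p-values for whole tissue come from 1 fit of the 12 total iBAT libraries, those of 6 and 12 weeks included. They measure the spread between libraries within all these ages, which may be technical in part.

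Brown adipocytes burn fatty acids in densely packed mitochondria, and uncoupling protein UCP1 lets the proton gradient run down as heat instead of making ATP. The sympathetic nerves drive this through beta-adrenergic receptors and cyclic AMP, with thyroid hormone activated inside the cell. In rabbits, as in other species born with large brown depots, the interscapular depot loses this machinery as the animal grows and comes to look like white fat, with large lipid droplets and high leptin.

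The 3 libraries of an age resembled each other (Pearson r over genes 0.973 to 0.975 at day 1 and 0.953 to 0.974 at 3 weeks), and the ages lay apart on the first principal component of the 12 total iBAT libraries, which held 55.9% of the variance. On that component day 1 lay between -71.5 and -66.3, 3 weeks between -14.5 and 8.44, and the later ages between 30.7 and 41.7. Read totals are not in the files, but the sequencing depth estimated from low FPKM values, relative to the other libraries, was 0.559 to 0.624 at day 1 and 0.792 to 0.983 at 3 weeks, and 15701 to 16023 genes were above 0 at day 1 against 16880 to 17350 at 3 weeks. Depth thus moved with age, and its part in the results was not tested.

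Among the 3-week libraries, 2 stood apart in cell types that are not fat (see the plot of marker genes of other cell types). Replicate 3 held skeletal muscle transcripts: the 34 muscle genes of the table summed to 10219 FPKM there, 2.15% of the library, against 134 and 102 FPKM in the other 3-week libraries and 225 to 401 FPKM at day 1. Replicate 2 held lymphocyte transcripts: 24 lymphocyte genes summed to 65.5 FPKM there, against 12.04 and 12.51 in the other 3-week libraries and 8.91 to 9.81 at day 1. CD3E, a chain of the T cell receptor complex, was at 0, 0 and 0.21 FPKM at day 1 and 0, 9.02 and 0.14 FPKM at 3 weeks, and MS4A1, the B cell surface protein CD20, at 0.2, 0.2 and 0.12 FPKM at day 1 and 0.23, 4.07 and 0.3 FPKM at 3 weeks. Results that rest on either library are given with and without it.

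**Figure D1:**
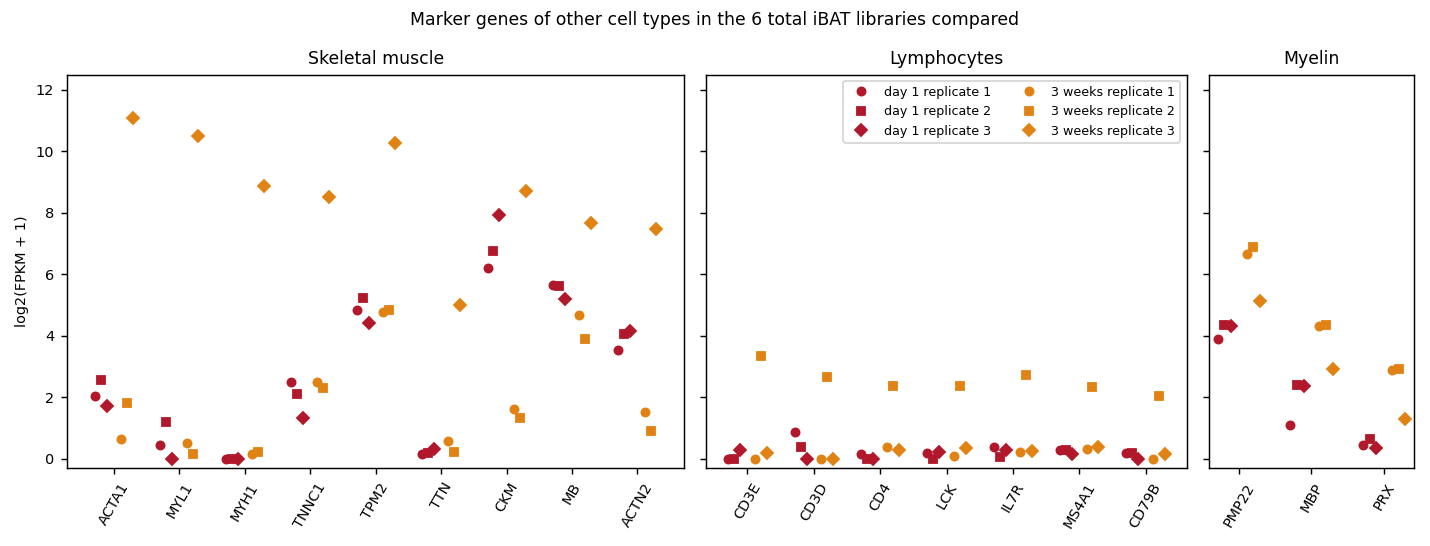
Level of marker genes, as log2(FPKM + 1), of skeletal muscle, lymphocytes and myelin in the 6 total iBAT libraries, with colour for age and symbol for replicate number. Replicate 3 of 3 weeks lies above the other 3-week libraries in every muscle gene shown and below them in the 3 myelin genes, and replicate 2 of 3 weeks lies above the other 5 libraries in the 7 lymphocyte genes.

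In all, 5234 genes (43.4%) differed between the ages at a Benjamini-Hochberg adjusted p under 0.05 in limma. Of the genes tested, 3944 (32.7%) were higher at 3 weeks and 1290 (10.7%) lower. The balance of the directions depended on the scaling. As deposited, the median log2 fold change over all tested genes was 0.23. After scaling the libraries by their median ratio, which brings that median to -0.01, 4789 genes (39.7%) were called, 2319 (19.2%) higher and 2470 (20.5%) lower. Without the library with muscle RNA 3540 (29.3%) were higher and 1092 (9.05%) lower. Counts with median ratio scaling are therefore given beside those as deposited for most gene groups. Each group's counts are to be read beside the shares over all genes tested. These were 32.7% higher and 10.7% lower as deposited, and 19.2% and 20.5% with median ratio scaling. ADORA1, an adenosine receptor gene, was listed at 34459, 33823 and 36722 FPKM at day 1 and 17613, 11452 and 16249 FPKM at 3 weeks, the lowest day 1 value being above all of 3 weeks. Whether these reads belong to ADORA1 or to another transcript assigned to it was not looked up here, as no genome of the files' build was used. With LOC100009266, a gene without a symbol, it took 8.51 to 9.92% of the summed FPKM of each day 1 library and 3.41 to 5.42% of each 3-week library. Log2 fold changes are 3 weeks minus day 1, fitted on log2(FPKM + 1), which understates changes of genes with low FPKM. A log2 fold change of 1 or more was reached by 1284 of the genes called higher, and one of -1 or less by 409 of those called lower. Over all 12066 genes, the 3 values of 3 weeks lay above all of day 1 in 4712 genes (39.1%). They lay below all of day 1 in 1754 genes (14.5%). Where a gene below is said not to overlap, that is to be read beside these shares.

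**Figure D2:**
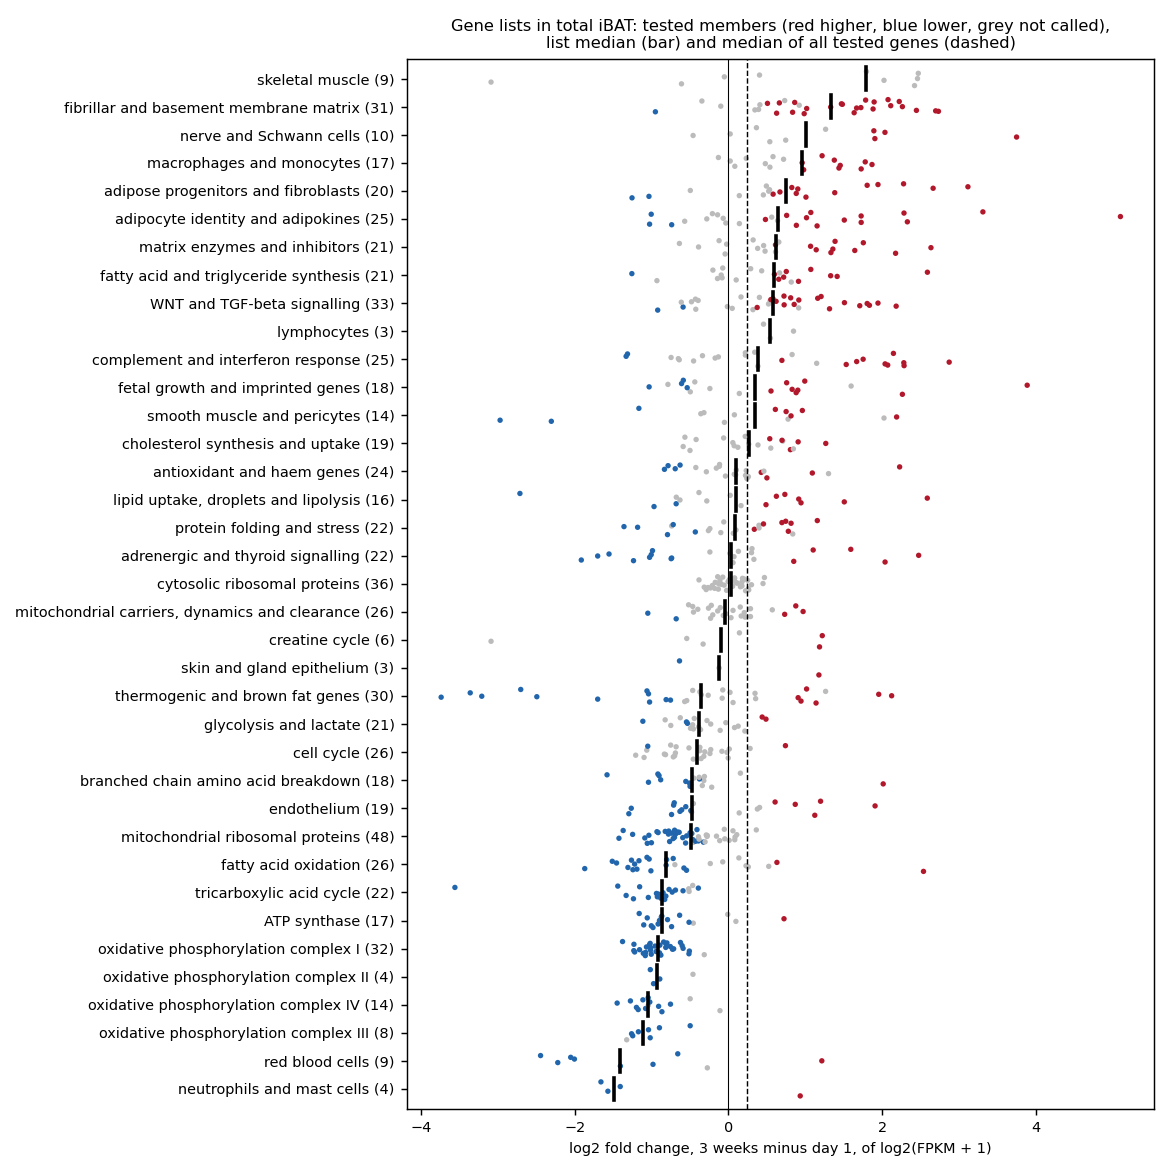
Log2 fold change of every tested member of 37 gene groups in total iBAT, 3 weeks minus day 1, in red where called higher, blue where called lower and grey where not called, with the group's median as a bar and the median of all 12066 genes (0.23) as a dashed line. Respiratory chain groups lie almost wholly to the left, with medians from -1.11 to -0.87, and the matrix group lies mostly to the right, with a median of 1.33.

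UCP1 transcripts were still abundant at 3 weeks, but below every day 1 library. UCP1 was at 5102, 5163 and 5779.8 FPKM at day 1 and 870.2, 671 and 942 FPKM at 3 weeks. The day 1 values lay close together and every 3-week value was below all of them, a log2 fold change of -2.70 (SE 0.70, limma adjusted p = 0.00922). The SE also carries the spread of UCP1 at the later ages, whose libraries were in the fit. In RNA from whole tissue, fewer cells of a type and less RNA per cell cannot be told apart, and this holds for every group below.

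Other genes of the thermogenic cell fell too. PPARGC1A, the coactivator that drives mitochondrial biogenesis, was at 51.04, 36.7 and 53.97 FPKM at day 1 and 3.11, 3.13 and 4.87 FPKM at 3 weeks, all 3-week values being far under the lowest day 1 value (log2 fold change -3.36, SE 0.20, adjusted p = 3.19e-06). FABP3, the fatty acid carrier of heart, muscle and brown fat, was at 1964, 1459 and 1442 FPKM at day 1 and 88.5, 82.8 and 231 FPKM at 3 weeks. Replicate 3, the library with muscle RNA, was the highest of the 3-week values for FABP3. The log2 fold change was -3.74 (SE 0.43, adjusted p = 0.0001) with that library and -4.21 (adjusted p = 8.94e-05) without it. GMPR, guanosine monophosphate reductase, was at 404, 265 and 699 FPKM at day 1 and 50.96, 39.8 and 43.95 FPKM at 3 weeks, with more spread at day 1 but no overlap (-3.21, SE 0.31, adjusted p = 3.83e-05).

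Of the 35 thermogenic and brown fat genes found in the table, 30 were tested, of which 11 were lower and 6 higher, with a median of -0.36 beside 0.23 over all genes. With median ratio scaling 15 were lower and 3 higher (median -0.61). Of the 30, 2 passed the filter through 3 weeks alone, so they had to differ. Glycerol kinase (GK), which lets brown fat reuse glycerol, fell by 2.49 on the log2 scale. DIO2, the deiodinase that makes active thyroid hormone, was at 46.4, 44.2 and 29.1 FPKM at day 1 and 14.2, 7.6 and 13.4 FPKM at 3 weeks and changed by -1.70 (adjusted p = 0.000211). NRG4, a growth factor secreted by brown fat, changed by -1.04 (adjusted p = 0.00371). COX7A1, the heart and muscle form of a cytochrome oxidase subunit, changed by -0.75 (adjusted p = 0.0285). Leaving out 1 library ended the COX7A1 call in 4 cases: day 1 replicate 1 (adjusted p = 0.083), day 1 replicate 3 (0.0605), 3 weeks replicate 1 (0.0735) and 3 weeks replicate 2 (0.115).

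PRDM16, which directs precursor cells to the brown lineage, was at 3.99, 4.99 and 2.85 FPKM at day 1 and 3.09, 2.88 and 2.34 FPKM at 3 weeks, with overlapping ages (log2 fold change -0.37, SE 0.18, adjusted p = 0.113). EBF2, another factor of brown precursors, changed by 0.35 (SE 0.15, adjusted p = 0.0773) and PPARGC1B, the sister of PPARGC1A, by 0.02 (SE 0.16, adjusted p = 0.928). LHX8, a homeobox factor used as a brown fat marker, was at 0.21, 1.34 and 1.94 FPKM at day 1 and 6.48, 11.9 and 4.03 FPKM at 3 weeks, with every 3-week value above day 1 (1.95, adjusted p = 0.00223). IRF4, a transcription factor of fat cells that respond to fasting and cold, was at 0.3, 0.32 and 0.33 FPKM at day 1 and 4.75, 6.33 and 3.47 FPKM at 3 weeks, again without overlap (2.12, adjusted p = 0.0017). IRF4 passed the filter through the 3-week libraries alone, so it had to differ. IRF4 is also a lymphocyte gene, and the library with lymphocyte RNA held the highest value. Without that library it changed by 1.95 (adjusted p = 0.0091). CIDEA, a lipid droplet protein of brown fat, was at 953, 950.0 and 555 FPKM at day 1 and 977, 2301 and 1594 FPKM at 3 weeks. It was called higher as deposited (0.94, adjusted p = 0.0226) but not with median ratio scaling (0.66, adjusted p = 0.0697) nor without day 1 replicate 3 (adjusted p = 0.0994), 3 weeks replicate 2 (0.0916) or 3 weeks replicate 3 (0.0539).

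**Figure D3:**
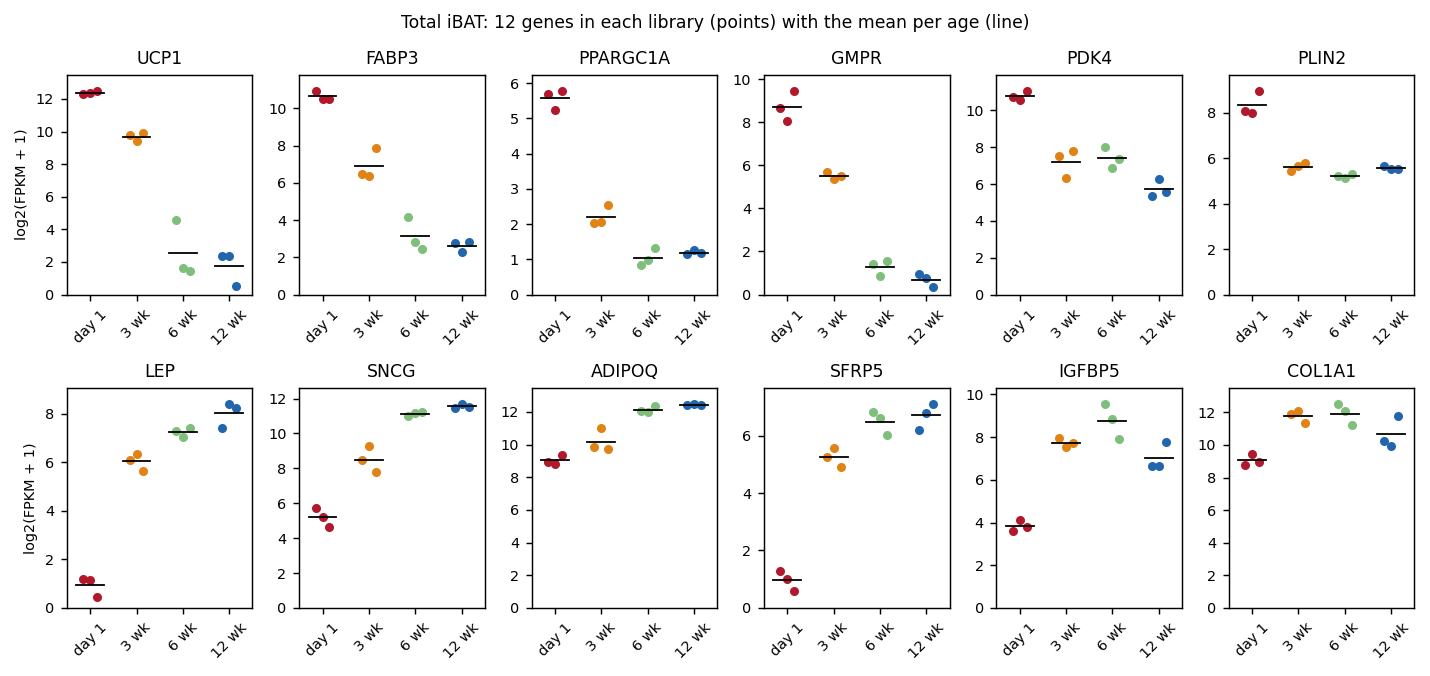
Level of 12 genes, as log2(FPKM + 1), in each of the 12 total iBAT libraries (points) with the mean of each age (line), from day 1 to 12 weeks. In all 12 genes the 3 values at 3 weeks lie clear of those at day 1, below them in the upper row and above them in the lower row.

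A gene that sets the choice of fuel fell too. PDK4, the kinase that shuts pyruvate out of the citric acid cycle when fat is burned, was at 1689, 1492 and 2126 FPKM at day 1 and 185, 78.9 and 219.8 FPKM at 3 weeks. Every 3-week value lay under the lowest day 1 value by a wide margin (log2 fold change -3.56, SE 0.39, adjusted p = 7.77e-05).

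Of the 26 genes of fatty acid oxidation tested, 17 were lower and 2 higher, with a median of -0.81 (19 and 1, median -1.09, with median ratio scaling). The largest fall was that of ACADM, the medium-chain acyl-CoA dehydrogenase, at 1209.6, 1478 and 1156 FPKM at day 1 and 341, 257 and 479 FPKM at 3 weeks (-1.87, SE 0.23, adjusted p = 0.00013). ETFA, which passes electrons from these dehydrogenases to the respiratory chain, changed by -1.51, the isomerase ECI1 by -1.46, and ACADVL, the very long chain dehydrogenase, by -1.31 (adjusted p = 0.000485, 7.25e-05 and 0.000147). CPT1B, the gate for fatty acid entry into mitochondria, changed by -0.81 (adjusted p = 0.00736). The peroxisomal transporter ABCD2 went the other way, at 6.94, 1.88 and 2.23 FPKM at day 1 and 21.6, 28.9 and 20.4 FPKM at 3 weeks (2.54, adjusted p = 0.000197).

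Nuclear genes of all 5 respiratory complexes fell together. Of the 75 tested, 65 were lower and 1 higher, with a median of -0.94, where 10.7% of all genes were called lower. With median ratio scaling the counts were 71 and 1 (median -1.22), and without the library with muscle RNA 63 and 1 (median -1.0). Complex I, the NADH dehydrogenase, had 31 of 32 genes lower (median -0.92). NDUFA9, an accessory subunit, was at 274, 313 and 374 FPKM at day 1 and 161, 107 and 143 FPKM at 3 weeks, every 3-week value being under all of day 1 (-1.23, SE 0.22, adjusted p = 0.00109). NDUFA11 was the exception (-0.32, SE 0.13, adjusted p = 0.0721), although its ages did not overlap (75.9, 77.2 and 80.6 FPKM at day 1 and 63.1, 59.5 and 64.7 FPKM at 3 weeks).

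Complex II, which also serves the citric acid cycle, had 3 of 4 genes lower, SDHA by -0.97, SDHB by -0.89 and SDHD by -1.02. Complex III had 7 of 8 lower (median -1.11). Its core protein UQCRC1 was at 510.5, 532 and 515 FPKM at day 1 and 216, 203 and 230.2 FPKM at 3 weeks, without overlap (-1.26, SE 0.12, adjusted p = 4.17e-05). CYCS, cytochrome c, was listed with this group and was not called (-1.32, SE 0.53, adjusted p = 0.0628).

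Complex IV, cytochrome oxidase, had 11 of 14 genes lower (median -1.04). COX7A2 was at 1071, 1096 and 1109 FPKM at day 1 and 439, 346 and 419 FPKM at 3 weeks (-1.45, SE 0.19, adjusted p = 0.000175), and COX6A1 and COX5A changed by -1.20 and -1.17 (adjusted p = 0.000726 and 0.00296). ATP synthase had 13 of 17 lower and 1 higher (median -0.87). ATP5E changed by -1.10 and USMG5 by -1.16 (adjusted p = 9.27e-05 and 0.000567). The gene called higher, ATP5J, was at 114, 126 and 111 FPKM at day 1 and 187, 189 and 204 FPKM at 3 weeks, all 3-week values being above day 1 (0.72, adjusted p = 0.00188). ATP5G3, a gene of the proton ring, was not called (0.10, SE 0.14, adjusted p = 0.606). Genes encoded in the mitochondrial genome were not analysed here.

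The citric acid cycle with its pyruvate entry had 19 of 22 genes lower and none higher (median -0.87, and 22 of 22 with median ratio scaling). Citrate synthase (CS) was at 2070.1, 2235 and 2605 FPKM at day 1 and 1019, 776 and 1163 FPKM at 3 weeks, without overlap (-1.24, SE 0.19, adjusted p = 0.000536). SUCLG1, a subunit of succinyl-CoA ligase, changed by -1.44 and IDH2, the mitochondrial isocitrate dehydrogenase, by -1.33 (adjusted p = 0.000297 and 0.00656). Leaving out 3 weeks replicate 2 left 11 of these genes lower.

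Other parts of the mitochondrion moved unequally. Of 48 tested mitochondrial ribosomal protein genes 31 were lower and none higher (median -0.49, 38 with median ratio scaling), whereas none of 36 cytosolic ribosomal protein genes was called in limma, none at an unadjusted p under 0.05, and their median was 0.03 (5 lower with median ratio scaling). The mitochondrial chaperones HSPD1 and HSPA9 changed by -1.36 and -1.18 (adjusted p = 0.00373 and 0.00386). Branched chain amino acid breakdown had 10 of 18 genes lower and 1 higher (16 and 1 with median ratio scaling). PCCA, a subunit of propionyl-CoA carboxylase, changed by -1.58, and BCAT2, the mitochondrial aminotransferase that starts the pathway, was at 0.8, 1.22 and 0.6 FPKM at day 1 and 5.75, 8.94 and 5.26 FPKM at 3 weeks (2.01, adjusted p = 0.000287). The count of 10 became 6 without day 1 replicate 2, without day 1 replicate 3 or without 3 weeks replicate 2.

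Protein folding and stress genes had 7 of 22 higher and 5 lower as deposited, and 4 and 10 with median ratio scaling. Over all genes tested 32.7% were higher and 10.7% lower as deposited, and 19.2% and 20.5% with that scaling. XBP1, the factor of the secretory stress response, was higher (1.16, adjusted p = 0.0115), and without 3 weeks replicate 2 only 4 of the 22 were higher. Antioxidant and haem genes had 4 of 24 in each direction (2 higher and 6 lower with median ratio scaling), among them SOD3, the extracellular superoxide dismutase (2.23, adjusted p = 0.000221), and PRDX3, a mitochondrial peroxidase (-0.83, adjusted p = 0.00807). The higher count was 2 without day 1 replicate 2 and 2 without 3 weeks replicate 1. Of 6 creatine cycle genes, 2 were higher and none lower under both scalings, GATM and ALPL as deposited (1.22 and 1.18, adjusted p = 0.0232 and 0.000124), of which ALPL passed the filter through 3 weeks alone and so had to differ. Without the library with muscle RNA the muscle genes CKM and CKMT2 were lower besides, and 1 gene was higher without day 1 replicate 1, day 1 replicate 3, 3 weeks replicate 1 or 3 weeks replicate 2. Of 3 tested skin and gland genes 1 was higher and 1 lower under both scalings. As deposited, DSP, a desmosome protein, was higher (1.18, adjusted p = 0.00376), and KRT8, a keratin of simple epithelium, lower (-0.64, adjusted p = 0.0421), having passed the filter through day 1 alone, so that it had to differ, a call that held in 1 of the 6 sets with a library left out.

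Of 26 genes for mitochondrial carriers, fusion, fission and clearance, 2 were lower and 3 higher (7 and 3 with median ratio scaling). The 2 lower were the fusion gene MFN1 (-1.05, adjusted p = 0.000748) and the mitophagy receptor BNIP3 (-0.68, adjusted p = 0.00942). The 3 higher were PARK2, the ubiquitin ligase parkin, at 0.58, 1.34 and 1.11 FPKM at day 1 and 3.31, 2.25 and 3.19 FPKM at 3 weeks (0.97, adjusted p = 0.00407), TFEB, the transcription factor of lysosome genes (0.88, adjusted p = 0.00114), and the lysosomal membrane protein LAMP1 (0.73, adjusted p = 0.00216). The count of lower genes became 4 without day 1 replicate 1 and 4 without 3 weeks replicate 3.

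The fat cell hormone genes LEP and ADIPOQ rose. LEP, which encodes leptin, was near the floor at day 1 and was the largest rise among the named genes, at 1.29, 1.23 and 0.37 FPKM at day 1 and 67.3, 80.6 and 49.6 FPKM at 3 weeks. No day 1 value came near any 3-week value (log2 fold change 5.10, SE 0.27, adjusted p = 3.14e-06). SNCG, gamma-synuclein, a protein abundant in white fat cells, was at 50.98, 36.4 and 24.2 FPKM at day 1 and 359, 609 and 216 FPKM at 3 weeks (3.31, SE 0.33, adjusted p = 4.47e-05). ADIPOQ, the fat cell hormone adiponectin, was already high at day 1, at 491, 444 and 652 FPKM at day 1 and 912, 2066 and 831 FPKM at 3 weeks, and rose without overlap (1.15, SE 0.31, adjusted p = 0.0106).

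Of 25 genes of adipocyte identity and adipokines 13 were higher and 3 lower, with a median of 0.64 (11 and 4 with median ratio scaling). CEBPA, a transcription factor of mature fat cells, was at 29.6, 41.3 and 36.6 FPKM at day 1 and 183, 190.3 and 174 FPKM at 3 weeks, with little spread at 3 weeks (2.33, SE 0.14, adjusted p = 3.57e-06). RBP4, the retinol carrier, changed by 2.28, the insulin-responsive glucose transporter SLC2A4 by 1.07, and the insulin receptor substrate IRS1 by 1.01 (adjusted p = 0.00059, 0.00135 and 0.000131). PPARG, the master factor of fat cells, was not called (-0.21, SE 0.21, adjusted p = 0.447), nor was FABP4, the common fatty acid carrier of fat cells (-0.28, SE 0.33, adjusted p = 0.518).

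Lipid droplet proteins moved both ways. PLIN2, the droplet coat of cells with many small droplets, was at 269.8, 251 and 495 FPKM at day 1 and 42.2, 48.98 and 54.6 FPKM at 3 weeks, every 3-week value lying under all of day 1 (-2.71, SE 0.21, adjusted p = 1.24e-05). CIDEC, which merges droplets into a large one, was at 167, 161 and 149 FPKM at day 1 and 439, 432 and 491 FPKM at 3 weeks, all above day 1 (1.51, SE 0.21, adjusted p = 0.000274). G0S2, an inhibitor of the lipase ATGL, was at 47.95, 67.6 and 33.1 FPKM at day 1 and 324, 268 and 282 FPKM at 3 weeks (2.59, SE 0.32, adjusted p = 0.000145), and ABHD5, the activator of that lipase, changed by -0.97 (adjusted p = 0.00814). Over the 16 tested genes of lipid uptake, droplets and lipolysis 7 were higher and 3 lower as deposited, and 3 higher and 6 lower with median ratio scaling, so the group as a whole had no direction that held in both. PLIN2, CIDEC and G0S2 were called in the same direction in both.

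Of 21 genes of fatty acid and triglyceride synthesis 9 were higher and 1 lower (5 and 2 with median ratio scaling). Over all genes tested 32.7% were higher as deposited and 19.2% with that scaling. MID1IP1, an activator of acetyl-CoA carboxylase, was at 1.26, 0.77 and 0.6 FPKM at day 1 and 12.9, 8.38 and 9.64 FPKM at 3 weeks (2.59, SE 0.30, adjusted p = 0.000107). FADS2, a fatty acid desaturase, changed by 1.41 (adjusted p = 0.000232). LPIN1, a phosphatidate phosphatase that also acts as a coactivator, was the gene called lower (-1.26, adjusted p = 0.000816), and ACLY, which makes cytosolic acetyl-CoA, was not called (-0.93, SE 0.37, adjusted p = 0.0603). ACLY was called lower with median ratio scaling (-1.21, adjusted p = 0.0271) and with the 6 libraries of these ages alone (-0.93, adjusted p = 0.0195). As deposited, it was not called with any 1 library left out. Cholesterol synthesis and uptake had 5 of 19 higher and none lower, a share of higher genes not above that over all genes. With median ratio scaling 2 were higher and 2 lower. As deposited 3 were higher without day 1 replicate 1 or without 3 weeks replicate 3. INSIG1, the sterol sensor, was the largest of the 5 (1.27, adjusted p = 0.00353). Glycolysis had 2 of 21 higher and 3 lower as deposited and none higher and 10 lower with median ratio scaling. PGAM1, a glycolytic mutase, was lower in both (-1.11, adjusted p = 0.000437, and -1.39, adjusted p = 0.000218). These small counts moved with single libraries. Without 3 weeks replicate 3 none was higher and 6 were lower, and without day 1 replicate 1 none was higher and 5 were lower. Without day 1 replicate 3 none was higher and 1 was lower, and without day 1 replicate 2 there was 1 of each. Without 3 weeks replicate 1 or 2, 1 was higher and 2 were lower.

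Of 22 tested genes of adrenergic and thyroid signalling 9 were lower and 5 higher (10 and 5 with median ratio scaling). Among the lower genes of this group was ADORA1, whose reads were not traced to that gene. It was not called in limma without a filter on low FPKM (-1.24, adjusted p = 0.246). NR1D1, a repressor of the circadian clock listed with this group, had its largest rise (2.47). The beta-adrenergic receptor of fat cells, ADRB3, was at 12.9, 14.7 and 21.03 FPKM at day 1 and 7.39, 7.84 and 6.67 FPKM at 3 weeks, without overlap (-1.03, SE 0.20, adjusted p = 0.00189). ADRB1 changed by -0.75 (adjusted p = 0.0169), but was not called with day 1 replicate 3 left out (adjusted p = 0.0677) or 3 weeks replicate 1 left out (0.0713). ADORA2A, an adenosine receptor that raises cyclic AMP, changed by -1.91 (adjusted p = 4.41e-05). PDE4D and PDE3B, phosphodiesterases that remove cyclic AMP, changed by -1.55 and -1.01 (adjusted p = 0.000146 and 0.00336). ADCY5, an adenylyl cyclase, was at 0.95, 1.11 and 0.35 FPKM at day 1 and 5.22, 10.2 and 4.5 FPKM at 3 weeks (2.04, adjusted p = 0.00127). Thyroid hormone receptor alpha, THRA, was at 11.6, 10.3 and 9.66 FPKM at day 1 and 29.8, 35.7 and 35.6 FPKM at 3 weeks, all 3-week values being above day 1 (1.59, SE 0.16, adjusted p = 5.25e-05), and THRB was not called (0.31, SE 0.18, adjusted p = 0.197).

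Connective tissue genes rose. Of 31 genes of fibrillar and basement membrane matrix 23 were higher and 1 lower, with a median of 1.33 (18 and 2, median 1.06, with median ratio scaling). COL1A1, a chain of type I collagen, was at 435, 681 and 503 FPKM at day 1 and 3842, 4421 and 2580.2 FPKM at 3 weeks. All 3-week values were above all of day 1, and the library with muscle RNA was the lowest of them (log2 fold change 2.73, SE 0.46, adjusted p = 0.00083, and 2.96 without that library). COL1A2 and COL3A1 changed by 2.70 and 2.44 (adjusted p = 0.000669 and 0.000418), and DCN, decorin, which binds collagen fibrils, by 2.26 (adjusted p = 0.000357). The microfibril and adhesion proteins TNXB and FBLN1 changed by 2.08 and 2.11 (adjusted p = 0.00262 and 0.00573).

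Not every gene of the group was called. The basement membrane collagens COL4A1 and COL4A2 were not (0.34, SE 0.17, adjusted p = 0.114, and 0.39, SE 0.18, adjusted p = 0.0944), COL15A1 was called higher (0.83, adjusted p = 0.013), and COL18A1 was the gene called lower (-0.95, adjusted p = 0.00834). Among 21 matrix enzymes and inhibitors 10 were higher and none lower (8 and 1 with median ratio scaling). Of these 21, 1 passed the filter through 3 weeks alone, so it had to differ. MMP2, a gelatinase, was at 20.97, 28.8 and 29.7 FPKM at day 1 and 174, 216 and 126 FPKM at 3 weeks, without overlap (2.63, SE 0.38, adjusted p = 0.000341). ADAMTS2, which trims procollagen, SERPINH1, the collagen chaperone, and LOXL2, which crosslinks collagen, changed by 2.17, 1.75 and 1.64 (adjusted p = 0.00191, 0.000123 and 0.000249).

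Markers of adipose progenitors and fibroblasts rose as well, 12 of 20 higher and 2 lower (10 and 2 with median ratio scaling). PI16, a marker of fibroblasts in the tissue's connective sheath, was at 11.4, 14.6 and 8.77 FPKM at day 1 and 89.5, 188 and 70.9 FPKM at 3 weeks (3.11, SE 0.51, adjusted p = 0.000743). PDGFRA, the receptor that marks fat precursors, was at 1.06, 1.39 and 0.95 FPKM at day 1 and 13.3, 15.5 and 9.31 FPKM at 3 weeks, with no overlap (2.66, SE 0.30, adjusted p = 8.62e-05). THY1 changed by 2.28 (adjusted p = 0.00414), while DLK1, the preadipocyte factor, was not called (19.9, 40.1 and 46.1 FPKM at day 1 and 42.7, 67.5 and 17.1 FPKM at 3 weeks; 0.14, SE 0.94, adjusted p = 0.915).

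SFRP5, one of the 12 genes with the largest rises, a decoy for WNT ligands made by fat cells, was at 1.44, 1.0 and 0.5 FPKM at day 1 and 37.7, 46.4 and 28.8 FPKM at 3 weeks (4.29, SE 0.28, adjusted p = 3.74e-06). ITGBL1, a secreted integrin-like protein, was at 1.88, 2.33 and 1.11 FPKM at day 1 and 83.5, 68.1 and 50.7 FPKM at 3 weeks (4.62, SE 0.35, adjusted p = 9.22e-06). IGFBP5, a binding protein for insulin-like growth factors, was at 11.2, 16.5 and 13.04 FPKM at day 1 and 248, 184 and 209 FPKM at 3 weeks (3.89, SE 0.38, adjusted p = 4.21e-05). In all 3 genes every 3-week value exceeded every day 1 value by more than the spread within either age. TGFBI, a matrix protein induced by TGF-beta, was at 27.1, 20.9 and 11.9 FPKM at day 1 and 249, 713 and 186 FPKM at 3 weeks, highest in the library with lymphocyte RNA (4.01, adjusted p = 0.00111, and 3.44, adjusted p = 0.00579, without that library). PLXDC1 passed the filter through 3 weeks alone, so it had to differ. APOD, a lipid-binding apolipoprotein, PLXDC1, PI15 and ITGA7, a laminin receptor subunit, changed by 3.18, 3.28, 3.13 and 3.12 (adjusted p = 0.000314, 1.1e-05, 0.00165 and 8.75e-06).

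Of 33 genes of WNT and TGF-beta signalling 18 were higher and 2 lower as deposited, but 11 higher and 8 lower with median ratio scaling. Of the 33, 2 passed the filter through 3 weeks alone, so they had to differ. The WNT receptors FZD4 and FZD1 were higher under both, by 1.83 and 1.71 as deposited (adjusted p = 0.000138 and 0.00049). The antagonists DKK2 and SFRP4 changed by 2.18 and 1.94 (adjusted p = 0.00148 and 0.0101), and BMP4, a signal for commitment to fat, by 1.31 (adjusted p = 0.000657). The count of 18 became 11 without day 1 replicate 3 and 9 without 3 weeks replicate 2, and the count of 2 became 1 without day 1 replicate 1.

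Among 19 endothelial genes 9 were lower and 5 higher (11 and 4 with median ratio scaling), where 10.7% of all genes tested were lower and 32.7% higher. KDR, the main receptor for vascular endothelial growth factor, was at 65.6, 38.7 and 47.3 FPKM at day 1 and 23.8, 23.1 and 14.4 FPKM at 3 weeks, without overlap (-1.27, SE 0.21, adjusted p = 0.00073), and the tight junction protein CLDN5 changed by -1.30 (adjusted p = 0.0016). PECAM1 and CDH5, which hold endothelial cells together, changed by -0.71 and -0.74 (adjusted p = 0.0113 and 0.0119). VWF, von Willebrand factor, and APLNR, the apelin receptor, were higher, by 1.20 and 1.12 (adjusted p = 0.00263 and 0.00126). Without the library with muscle RNA 5 genes were lower and 5 higher.

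In the vessel wall, the contractile actin ACTA2 was at 132, 164 and 101 FPKM at day 1 and 30.3, 35.8 and 15.3 FPKM at 3 weeks, all 3-week values being under day 1 (-2.30, SE 0.37, adjusted p = 0.000683). ACTG2, the enteric smooth muscle actin, changed by -2.97 (adjusted p = 8.28e-05) and TAGLN, an actin-binding protein, by -1.17 (adjusted p = 0.00518). Actin genes are near-identical copies, so how reads were split among ACTA2, ACTG2 and ACTA1 is uncertain. MYH11, the smooth muscle myosin, was not called (-0.36, SE 0.34, adjusted p = 0.421). The pericyte genes KCNJ8 and RGS5 were higher, by 2.19 and 0.96 (adjusted p = 3.75e-05 and 0.00577). Of the 14 genes 5 were higher and 3 lower (2 and 3 with median ratio scaling). The count of 5 became 3 without day 1 replicate 2, 2 without day 1 replicate 3 and 3 without 3 weeks replicate 2.

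Macrophage and monocyte genes were higher in 9 of 17 cases and lower in none (4 and none with median ratio scaling). Over all genes tested 32.7% were higher as deposited and 19.2% with that scaling. Of the 17, 1 passed the filter through 3 weeks alone, so it had to differ. CSF1R, the receptor that keeps macrophages alive, was at 3.84, 5.3 and 3.91 FPKM at day 1 and 15.98, 25.4 and 15.2 FPKM at 3 weeks, without overlap (1.87, SE 0.43, adjusted p = 0.0051). CD68, a lysosomal protein of macrophages, changed by 1.45 (adjusted p = 0.00496), and the scavenger receptor CD163 by 0.08 (SE 0.39, adjusted p = 0.88). In all 9 genes called, the library with lymphocyte RNA held the highest of the 3-week values. Without it 2 of the 17 were called, CD68 and CSF1R, and CSF1R changed by 1.64 (adjusted p = 0.0239). Without day 1 replicate 2, 5 were called.

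Of 25 complement and interferon response genes 10 were higher and 2 lower as deposited, near the shares over all genes tested, 32.7% and 10.7%. With median ratio scaling 9 were higher and 3 lower, where 19.2% of all genes tested were higher and 20.5% lower. C3, the central complement protein, was at 9.58, 5.94 and 6.84 FPKM at day 1 and 25.6, 52.4 and 27.1 FPKM at 3 weeks, without overlap (2.04, SE 0.43, adjusted p = 0.0032). C7 and C1S changed by 2.28 and 2.07 (adjusted p = 0.000149 and 0.00174). CD74, which chaperones class II antigen-presenting molecules, was at 14.2, 10.2 and 15.7 FPKM at day 1 and 75.3, 196 and 73.7 FPKM at 3 weeks, highest in the library with lymphocyte RNA (2.87, adjusted p = 0.00024, and 2.41, adjusted p = 0.000639, without it). The interferon-induced genes ISG15 and RSAD2 were lower, by -1.33 and -1.31 (adjusted p = 0.0131 and 0.00728). RSAD2 passed the filter through day 1 alone, and ISG15, whose ages overlapped, was not called without day 1 replicate 1 (adjusted p = 0.0528) or day 1 replicate 3 (0.0538). Without 3 weeks replicate 2, 8 genes of the group were higher and 2 lower. The count of 2 lower became 1 without day 1 replicate 1, 4 without day 1 replicate 2 and 1 without day 1 replicate 3. Only 3 of the 24 lymphocyte genes in the table were tested, and none was called in limma under either scaling, with none at an unadjusted p under 0.05 (without 3 weeks replicate 3, CD3G, a T cell receptor chain, was called higher by 1.21, adjusted p = 0.0276).

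Red cell genes fell. HBB2, a beta-type globin, was at 3853, 1919 and 4545 FPKM at day 1 and 789.5, 735 and 895 FPKM at 3 weeks (-2.0, SE 0.42, adjusted p = 0.00282). HBZ, an embryonic globin, was at 199, 108 and 265 FPKM at day 1 and 37.5, 46.8 and 43.05 FPKM at 3 weeks (-2.05, adjusted p = 0.00188), and the erythroid gene HEMGN changed by -2.44 (adjusted p = 0.000305). In these genes day 1 replicate 2 was the lowest of day 1, and all 3-week values were lower still. Of 9 red cell genes tested 7 were lower and 1 higher, GYPC (1.21, adjusted p = 0.00435), with a median of -1.41, and the counts were the same with median ratio scaling. The neutrophil proteins S100A8 and S100A9 changed by -1.41 and -1.66 (adjusted p = 0.0232 and 0.0204). With S100A12 they made up the 3 lower of 4 neutrophil and mast cell genes tested (3 with median ratio scaling too), a count that became 0 without day 1 replicate 1, without 3 weeks replicate 1 or without 3 weeks replicate 3, and 1 without day 1 replicate 3. KIT, the mast cell growth factor receptor, was the gene called higher (0.93, adjusted p = 0.0199), but not without day 1 replicate 3 or without 3 weeks replicate 2.

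Cell division genes were low at both ages and few were called, 1 of 26 lower and 1 higher in limma, with a median of -0.42 (6 lower and none higher with median ratio scaling). Of the 26, 1 passed the filter through day 1 alone, so it had to differ. MKI67, the proliferation antigen, was at 5.53, 3.53 and 3.34 FPKM at day 1 and 2.32, 2.05 and 0.39 FPKM at 3 weeks (-1.06, SE 0.48, adjusted p = 0.0933), and TPX2, a spindle protein, was the gene called lower (-1.05, adjusted p = 0.0183). TYMS, which makes thymidylate, was called higher (0.74, adjusted p = 0.0214), but not without day 1 replicate 1 or 3 or without 3 weeks replicate 1 or 2. TPX2 was not called without day 1 replicate 1 (adjusted p = 0.0675) or without 3 weeks replicate 3 (0.0556). KIF20B, a kinesin of the dividing cell, was not in that group and was at 47.8, 57.9 and 46.6 FPKM at day 1 and 4.95, 3.04 and 3.6 FPKM at 3 weeks (-3.42, SE 0.23, adjusted p = 3.74e-06). Of 18 genes of fetal growth and imprinting 8 were higher and 4 lower as deposited, and 4 and 5 with median ratio scaling. IGF2R, the clearance receptor for insulin-like growth factor, was lower (-1.03, adjusted p = 0.00622) and the imprinted regulator NDN too (-0.61, adjusted p = 0.00215). The count of 4 lower was 2 without day 1 replicate 1, without day 1 replicate 3 or without 3 weeks replicate 3.

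The largest fall among the named genes was that of GLDN, gliomedin, a protein of the nodes of myelinated nerve, at 57.3, 44.4 and 80.4 FPKM at day 1 and 2.3, 1.94 and 0.83 FPKM at 3 weeks (-4.52, SE 0.33, adjusted p = 7.53e-06). Falls were also large for EGLN3, an oxygen-dependent hydroxylase of hypoxia-inducible factors, at 99.03, 115 and 195 FPKM at day 1 and 19.5, 14.1 and 22.6 FPKM at 3 weeks (-2.76, adjusted p = 0.000118), and PHOSPHO1, a phosphatase of phospholipid head groups, at 36.3, 44.5 and 60.2 FPKM at day 1 and 4.78, 4.64 and 12.6 FPKM at 3 weeks (-2.63, adjusted p = 0.000394). All 3 genes were without overlap between the ages, which the rule for the largest rises and falls required.

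Myelin genes were high at 3 weeks in 2 libraries of 3. PMP22, a myelin membrane protein, was at 13.8, 19.1 and 19.01 FPKM at day 1 and 99.7, 117 and 33.6 FPKM at 3 weeks, replicate 3 being the low one (2.04, SE 0.48, adjusted p = 0.00576). The 19 nerve and Schwann cell genes in the table summed to 471 and 517 FPKM in replicates 1 and 2 of 3 weeks, to 113 in replicate 3, and to 70.8 to 88.1 at day 1. Of 10 tested 4 were higher and none lower (3 with median ratio scaling), and 2 were higher without day 1 replicate 3, without 3 weeks replicate 1 or without 3 weeks replicate 2. Over all genes tested 32.7% were higher as deposited and 19.2% with median ratio scaling. Of the 10, 1 passed the filter through 3 weeks alone, so it had to differ. SOX10, which defines Schwann cells, was not called (1.86, 1.39 and 1.78 FPKM at day 1 and 3.07, 2.9 and 1.55 FPKM at 3 weeks; 0.36, SE 0.32, adjusted p = 0.387).

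The muscle genes came in different patterns. ACTA1, skeletal muscle actin, was at 3.08, 4.86 and 2.26 FPKM at day 1 and 0.56, 2.54 and 2163 FPKM at 3 weeks, and MYL1, a fast muscle myosin light chain, at 0.35, 1.3 and 0 FPKM at day 1 and 0.41, 0.11 and 1450.1 FPKM at 3 weeks, so both were high in replicate 3 of 3 weeks alone. CKM, the muscle creatine kinase, was at 73.3, 108 and 243 FPKM at day 1 and 2.03, 1.51 and 421 FPKM at 3 weeks: high in all 3 day 1 libraries and in replicate 3 of 3 weeks. MB, myoglobin, was at 48.9, 47.6 and 35.5 FPKM at day 1 and 24.8, 13.97 and 204 FPKM at 3 weeks, and ACTN2, an actinin of the muscle Z-disc, at 10.5, 15.6 and 16.7 FPKM at day 1 and 1.88, 0.85 and 177 FPKM at 3 weeks. CKM, MB and ACTN2 were thus listed well above 0 at day 1, where ACTA1 did not pass 4.86 FPKM. Of the 34 muscle genes listed, 9 were tested, and none was called in limma under either scaling, with none at an unadjusted p under 0.05. Without replicate 3 of 3 weeks 2 were lower, CKM with a log2 fold change of -5.51 (adjusted p = 0.000488) and ACTN2 with -2.70 (adjusted p = 0.000948). Without 3 weeks replicate 2, 1 was higher, TNNC1, a troponin of slow and cardiac muscle (3.54, adjusted p = 0.0485). PGAM2, the muscle phosphoglycerate mutase, met the rule for named genes at 0.34, 0.37 and 1.33 FPKM at day 1 and 4.13, 2.47 and 189 FPKM at 3 weeks (3.21, SE 1.11, adjusted p = 0.0357, and 1.38, adjusted p = 0.0165, without replicate 3 of 3 weeks). It was not called after dropping day 1 replicate 1 (adjusted p = 0.0863), 2 (0.0869) or 3 (0.0594).

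The same ages were also sampled in the SVF of this depot. Its table was normalized on its own, so values are set side by side and no test compares the 2 tables. The SVF fit held 24 libraries, those of later ages and of the subscapular depot included. Its p-values therefore carry the spread within those libraries too. Of the 11955 genes tested there 2397 (20.1%) were called, 637 (5.33%) higher and 1760 (14.7%) lower, or 1212 (10.1%) and 1460 (12.2%) with median ratio scaling. Without SVF day 1 replicate 2 the counts were 457 and 1581, and without any 1 of the other 5 SVF libraries of these ages 349 to 407 higher and 916 to 1185 lower. Over the 11147 genes tested in both, 600 (5.38%) were higher and 1546 (13.9%) lower at 3 weeks in the SVF, with a median of -0.13 (1167 and 1309 with median ratio scaling). Of these 11147 genes, 4840 were called in total iBAT and 2146 (19.3%) in the SVF. Genes called in both numbered 959, which was 19.8% of the total iBAT calls and 44.7% of the SVF calls. These shares lay near those over all genes, 19.3% in the SVF and 43.4% of the 12066 genes tested in whole fat. Of the 959 genes, 621 had the same direction.

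Respiratory chain genes, 65 of 75 lower in whole fat, had none lower and 2 higher in the SVF (median 0.17, and 16 higher with median ratio scaling). UQCRC1 changed by -1.26 in whole fat and by -0.20 in the SVF (adjusted p = 0.398). UCP1 was in the SVF at 22.2, 5.58 and 50.5 FPKM at day 1 and 6.84, 0.53 and 11.5 FPKM at 3 weeks (-1.90, adjusted p = 0.0458). Matrix genes, 23 of 31 higher in whole fat, had 3 higher and 8 lower in the SVF (median -0.53). COL1A1 was there at 11528, 13416 and 7548 FPKM at day 1 and 10981, 13086 and 8679.8 FPKM at 3 weeks, with overlapping ages (0.03, adjusted p = 0.963). COL3A1 changed by 0.21 in the SVF (adjusted p = 0.71) and DCN by 1.23 (adjusted p = 0.0207). Genes called in both with opposite signs, and without overlap between the ages in either, numbered 324 (2.91%). COL12A1, a fibril-associated collagen, was one of them, with 0.63 in whole fat (adjusted p = 0.0358) and -3.12 in the SVF (adjusted p = 3.56e-06). The call in whole fat was lost with median ratio scaling (0.35, adjusted p = 0.235) and without any library of the 6 but day 1 replicate 3.

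**Figure D4:**
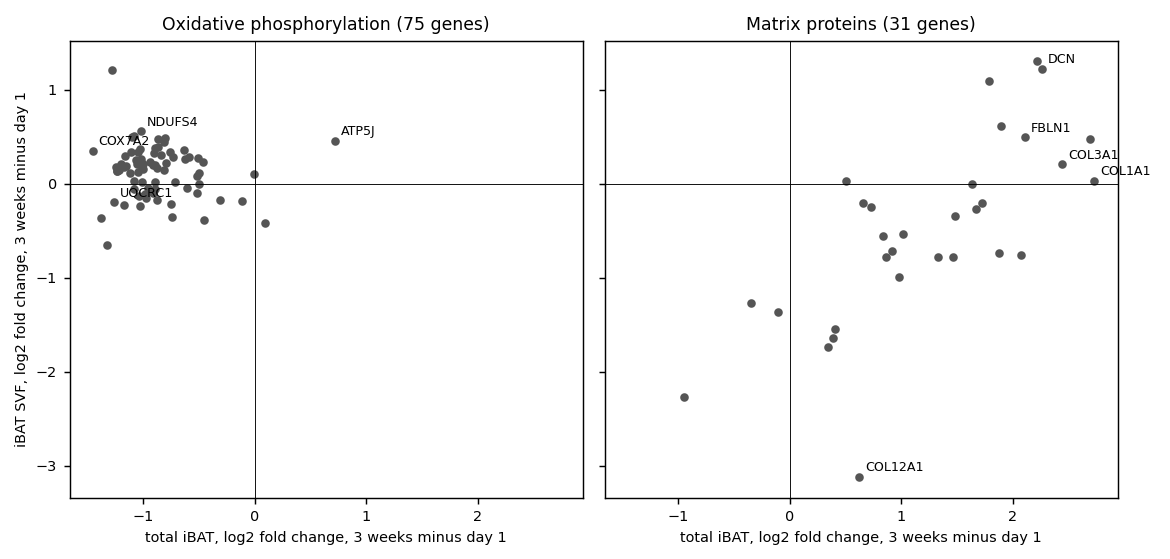
Log2 fold change from day 1 to 3 weeks in total iBAT (horizontal axis) and in iBAT SVF (vertical axis) for 75 respiratory chain genes and 31 matrix genes, each point 1 gene. Most respiratory chain genes lie to the left of 0 on the whole-fat axis and near 0 on the SVF axis, whose median over them is 0.17, and matrix genes lie mostly to the right of 0, with COL1A1 at 2.73 and 0.03 and COL12A1 at 0.63 and -3.12.

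Cell division genes, with 1 of 26 lower in whole fat, had 18 of 26 lower and none higher in the SVF (median -0.99), MKI67 with -1.66 (adjusted p = 0.00546). With median ratio scaling 13 were lower and none higher there (median -0.86). LEP was in the SVF at 0.03, 0 and 0.05 FPKM at day 1 and 5.28, 2.16 and 2.0 FPKM at 3 weeks (1.93, adjusted p = 0.000398). ITGBL1 and PLXDC1 changed by 3.59 and 2.56 there (adjusted p = 9.92e-07 and 0.000225), while SFRP5 and TGFBI changed by 0.17 and 0.06 (adjusted p = 0.646 and 0.886). ACTA2 fell in the SVF as well (-3.0, adjusted p = 0.000249).

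The later course of these genes is given as values, since the 6-week comparison shares the 3-week libraries. Between 3 and 6 weeks 485 of the 12066 genes (4.02%) were higher and 893 (7.4%) lower, against 178 and 519 without 3 weeks replicate 3, the library with muscle RNA, 227 and 563 without 6 weeks replicate 2, and 260 higher without 3 weeks replicate 1. UCP1 was at 22.4, 2.08 and 1.69 FPKM at 6 weeks (-7.15 from 3 to 6 weeks, adjusted p = 8.31e-05), FABP3 at 16.7, 6.16 and 4.47 FPKM (-3.76, adjusted p = 0.00024) and GMPR at 1.67, 0.82 and 1.97 FPKM (-4.23, adjusted p = 1.43e-05). For UCP1 and GMPR the 6-week values were far under those of 3 weeks. PDK4 was at 258, 114 and 163 FPKM (0.19, adjusted p = 0.806) and PLIN2 at 36.3, 34.3 and 38.4 FPKM (-0.40, adjusted p = 0.265), values near those of 3 weeks. LEP was at 154, 132 and 169 FPKM (1.21, adjusted p = 0.0138), and COL1A1 at 5806, 4293 and 2369.7 FPKM (0.14, adjusted p = 0.877), overlapping its 3-week values. CIDEA was at 1278, 1294 and 1390.4 FPKM (-0.21, adjusted p = 0.7).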

How the data were processed

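The authors deposited FPKM per gene and library, per the file headers, for total iBAT and for the SVF, each normalized on its own. The submitters' processing notes name HISAT2 2.0.4, Bowtie2 2.2.5, DESeq2 and the build OryCun2.0, without their roles. The program that computed FPKM is not given in the sources used here. Symbols came from the SVF table by gene ID (14317 genes) or a RefSeq gene table of assembly mOryCun1.1 (717 genes), used for names alone. The model was limma 3.58.1 in R 4.3.3 on log2(FPKM + 1), 1 mean per age, with a variance trend, over the 12 total iBAT libraries in 1 fit. The SVF fit held 24 libraries, from the interscapular and the subscapular depot, with 1 mean per depot and age. P-values are two-sided and were adjusted (Benjamini-Hochberg) over all genes tested.

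Of the 12066 genes, 390 passed the filter through 3 weeks alone and 64 through day 1 alone; such genes had to differ, and 358 and 57 of them were called. Of the 8117 genes left out 195 had a third-highest FPKM within 0.1 below 1, the nearest at 0.99, and 173 tested genes one within 0.1 above it. On simulated data for this comparison, over 12066 genes, 66.4% of 107 genes changed by 1 on the log2 scale and 94.6% of 93 changed by 2 were recovered, with 11 false calls. Far fewer genes changed there than the 43.4% called in the data, and no shift of depth or scaling was simulated. These rates need not hold for the data.

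The named genes were the 12 largest rises and 12 largest falls among called genes that had a symbol, averaged at least 10 FPKM at either age, did not overlap between the ages and kept their call without 3 weeks replicate 3, besides the largest changes and defining members of each list and the muscle genes ACTA1, MYL1 and CKM. Members and lists were chosen with earlier results of these data known. Alternatives covered the pseudocount, the filter, the call rule, scaling, the muscle list, the variance model, the libraries fitted, a replicate block and each library left out. Replicate numbers were not treated as pairs (correlations of same-numbered deviations -0.126, -0.180 and -0.0363). Some genes that the rule names are not reported here. Single-cell samples were not analysed here.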

Additional observations from a re-analysis of the deposited data

Results flagged for a closer look

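Among the list members and named genes with a mean FPKM of at least 10 at either age in each table, 10 were called in total iBAT and in iBAT SVF with opposite signs and without overlap between the ages in either; over all 11147 genes tested in both, with no such minimum, 324 (2.91%) were. The difference between the tables was not tested, because each was normalized on its own. Lower in the SVF and higher in whole fat were COL12A1 (-3.12 in the SVF and 0.63 in whole fat), the lactate carrier SLC16A1 (-1.15 and 0.49), F3, the tissue factor that starts clotting (-1.15 and 0.88), the collagen crosslinker LOXL2 (-0.80 and 1.64), LOC100351387, which the RefSeq table names as the laminin chain LAMC1 (-0.78 and 0.86), and the TGF-beta receptor TGFBR1 (-0.65 and 0.55). Higher in the SVF and lower in whole fat were the ATP synthase subunit ATP5E (0.49 and -1.10), BCKDHA of branched chain amino acid breakdown (0.52 and -0.51), the complex I subunit NDUFS4 (0.56 and -1.02) and the pyruvate dehydrogenase kinase PDK2 (0.56 and -0.39). The whole-fat calls of COL12A1 and SLC16A1 were lost with median ratio scaling (adjusted p = 0.235 and 0.329).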

How the results depend on the processing

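The count of genes higher at 3 weeks in whole fat was 2550 with a filter at an FPKM of 5, 2319 with median ratio scaling and 2019 with that scaling and without 3 weeks replicate 3, and the count lower was 2470 and 2188 in the last 2 settings; the last setting was chosen after seeing the data, and the larger filter tested fewer genes. Requiring also an absolute log2 fold change of 1 gave 1693 genes, 1284 higher and 409 lower. Leaving out ADORA1 and LOC100009266 and rescaling the libraries, also chosen after seeing the data, gave 4939 genes, 3468 higher and 1471 lower. Leaving out 1 library gave 3928 to 4681 genes, 2877 to 3619 higher and 995 to 1130 lower. For 6 against 3 weeks it gave 697 to 1447 genes, 178 to 586 higher and 519 to 896 lower, and for the SVF 1272 to 2038 genes, 349 to 457 higher and 916 to 1581 lower. In the SVF median ratio scaling gave 1212 higher. The cause of these shifts was not tested. A replicate block, although the numbers were not taken to pair the samples, gave 4727 genes (3587 higher and 1140 lower), 1079 for 6 against 3 weeks and 2187 for the SVF. Beside these, the count of all genes called was 4789 with median ratio scaling, 4207 with that scaling and without 3 weeks replicate 3, 3648 with the FPKM filter of 5, and 4821 to 5420 in the other settings that kept all 6 libraries. Of the 24 genes with the largest changes, 22 were called in every alternative, and PGAM2 was among those that were not. The rule that chose these 24 required a call as deposited and without 3 weeks replicate 3, so those calls were fixed in advance. Among the list members, clock genes and named genes, the only called gene to change sign was TPI1, a glycolytic enzyme. It was at -0.00434 with median ratio scaling and without 3 weeks replicate 3 (adjusted p = 0.986 in limma). Genes called in neither setting changed sign more often, 65 with median ratio scaling and 70 with that scaling and without 3 weeks replicate 3. Read totals are unknown, so changes of genes at low FPKM, above all at day 1 where depth was lowest, are the least precise.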

Other observations

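Genes of the circadian clock, apart from NR1D1, which was listed with adrenergic and thyroid signalling, were not part of the comparison above. As a group they were looked at after their values had been seen. Of 16 tested, 5 were higher and 3 lower as deposited, and 5 and 5 with median ratio scaling; over all genes tested 32.7% were higher and 10.7% lower as deposited, and 19.2% and 20.5% with that scaling. ARNTL, which encodes the activator BMAL1, was at 7.95, 7.88 and 6.82 FPKM at day 1 and 0.9, 0.66 and 0.95 FPKM at 3 weeks, a log2 fold change of -2.22. Its partner NPAS2 changed by -1.04 (adjusted p = 0.012 in limma). Both passed the filter through day 1 alone, so they had to differ. The repressor CRY1 was at 38.02, 39.9 and 31.6 FPKM at day 1 and 7.12, 5.74 and 6.76 FPKM at 3 weeks, all 3-week values being lower (-2.31, adjusted p = 4.47e-05). The repressors of ARNTL, NR1D1 and NR1D2, changed by 2.47 and 1.41 (adjusted p = 0.000485 and 0.0011). PER2 was at 0.42, 0.53 and 0.64 FPKM at day 1 and 3.83, 4.82 and 3.88 FPKM at 3 weeks (1.76), having passed the filter through 3 weeks alone, so that it had to differ. The output factors TEF and HLF changed by 2.60 and 1.67 (adjusted p = 2.73e-05 and 0.000173). CLOCK was not called (-0.02, adjusted p = 0.918). In the SVF, ARNTL changed by -2.39 and NR1D1 by 1.07 (adjusted p = 0.000476 and 0.021). The time of day at which tissue was taken is not given in the sources used here, so age and time of collection cannot be told apart.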
